A study of Arabidopsis thaliana with 16 samples.

Results

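The interaction between genotype and growth temperature was examined over 16 of the 16 arrays of the study, all of which the labels place in 1 of its 4 genotype and temperature groups. The interaction is the difference phyB-1 minus Ler at 22 °C less the difference phyB-1 minus Ler at 16 °C. It was computed per probe set on the log2(intensity + 16) scale, with the 4 h and 10 h arrays of a replicate number averaged first. A positive value means that phyB-1 stood higher relative to Ler at 22 °C than at 16 °C, and a negative value means the reverse. The question was which genes differ between phyB-1 and Ler in the warmth or in the cool only, with the same sign in both replicate sets.

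The study measured transcript levels in shoots of Arabidopsis thaliana on ATH1 arrays, which carry 1 set of short probes per transcript. Its groups were phyB-1 at 22 °C, Ler at 22 °C, phyB-1 at 16 °C and Ler at 16 °C, each with 2 arrays at 4 h and 2 at 10 h. phyB-1 is a mutant of the photoreceptor gene PHYB, and Ler is Landsberg erecta, the background line, which carries a mutation in the receptor kinase gene ERECTA. All plants were stratified in the cold and raised on soil, and 1 growth protocol, a cool period followed by 22 °C, is given for every sample, which leaves unclear when and how long the 16 °C plants were at that temperature. The labels do not state the event from which the hours were counted. Whether replicate arrays stem from different plants is not stated, so a p-value here measures the spread between these samples, which may be technical.

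Phytochrome B is a receptor for red and far-red light that is active after red light and reverts to an inactive form in darkness, a reversion that warmth speeds up. In its active form it enters the nucleus and restrains the PIF transcription factors, which drive stem and petiole elongation and auxin synthesis. Plants without it have long petioles, pale leaves and early flowering, much as shaded or warm-grown plants do.

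Facts of the arrays set limits on every value below. The replicate number divides the arrays into 2 sets, called set 1 and set 2, and same-numbered groups deviated together. The median intensity per array was 30.7 to 41, and dim signal differed between sets, with a lower quartile per array of 9.63 to 11.5 (set 1) or 5.84 to 7.63 (set 2). The 2 arrays labelled phyB-1 16 °C replicate 2 stood apart. Each correlated with its own replicate at only 0.863 (4 h) and 0.878 (10 h), against 0.960 to 0.975 in the other 6 groups, and with the replicate 1 array of the other time at 0.954 and 0.947. Averaging over the times keeps the interaction the same whether or not these arrays were exchanged, but phyB-1 at 16 °C in set 2 rests on them alone. The shoot genes RCA and LHCB4.1 lay at 3995 to 11959 and 5731 to 10535 over the 16 arrays, at percentile 99.9 of the probe sets. The root gene PYK10 lay at 92.2 to 374, at percentile 87.4. The root genes EXPA7 and EXPA18 lay at percentiles 32.3 and 30.9. The level of PHYB was not analysed here. In whole shoots, fewer cells of a type and less RNA per cell cannot be told apart.

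No probe set passed the test for the interaction (limma, 13648 tested, 0% called at an adjusted p under 0.05, smallest adjusted p = 0.99994). At an unadjusted p under 0.05 there were 286 probe sets, 2.1% of those tested, 147 of them positive (1.08%) and 139 negative (1.02%). With the replicate number as a block the count at that level was 821 (6.02%) and the smallest adjusted p was 0.44, so none passed there either. The fit that left out both doubtful arrays gave 1155 (8.46%), none passing, with a smallest adjusted p of 0.14. The single-array fit without averaging gave 321 (2.35%) and none passing. Every value below is therefore a measured size in these arrays, and no single gene is shown to respond to genotype differently at the temperatures.

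The replicate sets agreed weakly over all probe sets and more often where the interaction was large. Over all 13648 the interactions of set 1 and set 2 correlated at Pearson r = 0.148 (Spearman 0.117), across probe sets that share arrays within each set and are not independent. The signs matched in 7384 probe sets, 54.1% of those tested. Among probe sets with at least 0.4 log2 units in each set, 717 had matching and 383 had opposite signs. At 0.6 the counts were 201 and 60, at 0.8 they were 64 and 8, and at 1 they were 16 and 0. The share with matching signs was 65.2%, 77%, 88.9% and 100% at these sizes.

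**Figure D1:**
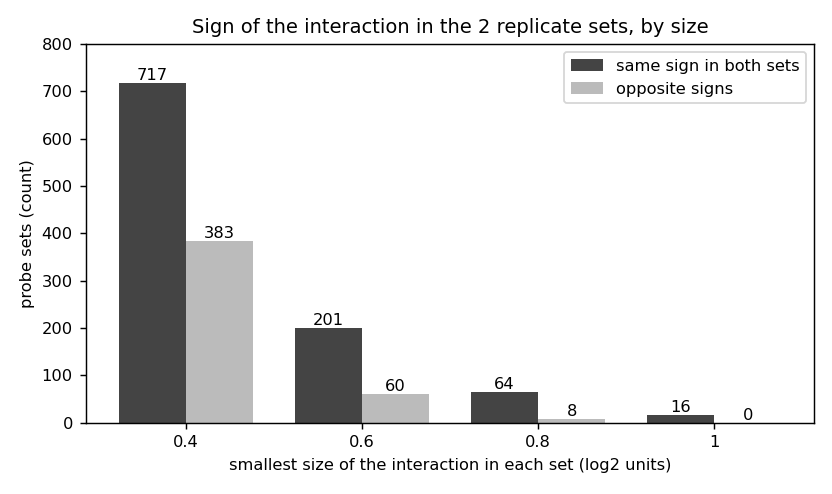
Number of tested probe sets (y axis) whose interaction reached a given size in each replicate set (x axis, log2 units), split by whether the signs of the sets matched. Matching signs outnumbered opposite ones at each size, 201 to 60 at 0.6 log2 units and 16 to 0 at 1.

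The 201 probe sets with at least 0.6 log2 units and matching signs, 1.47% of those tested, are called repeated here, and they were chosen by the interaction itself, so their sizes are a description. Of these, 91 were positive (0.667% of those tested) and 110 negative (0.806%), and 96 had 1 named gene. This split turned with the scaling, to 99 positive and 93 negative after quantile normalization and to 120 positive and 85 negative after median centring. Their median mean intensity was 75.7, against 42.4 for the 60 with opposite signs and 89.1 for all tested probe sets. The size was larger in set 2, the set with the doubtful arrays, in 112 of the 201. Without those arrays 159 of the 201 still had at least 0.6 log2 units in the same direction, in a fit that shares its other 14 arrays with the choice of members. At the threshold itself, AT5G27990 (0.5986) and AT4G00780 (0.5995) in the smaller of their sets lay just outside, and AT3G05220 (0.601) and AT2G19710 (0.607) just inside.

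**Figure D2:**
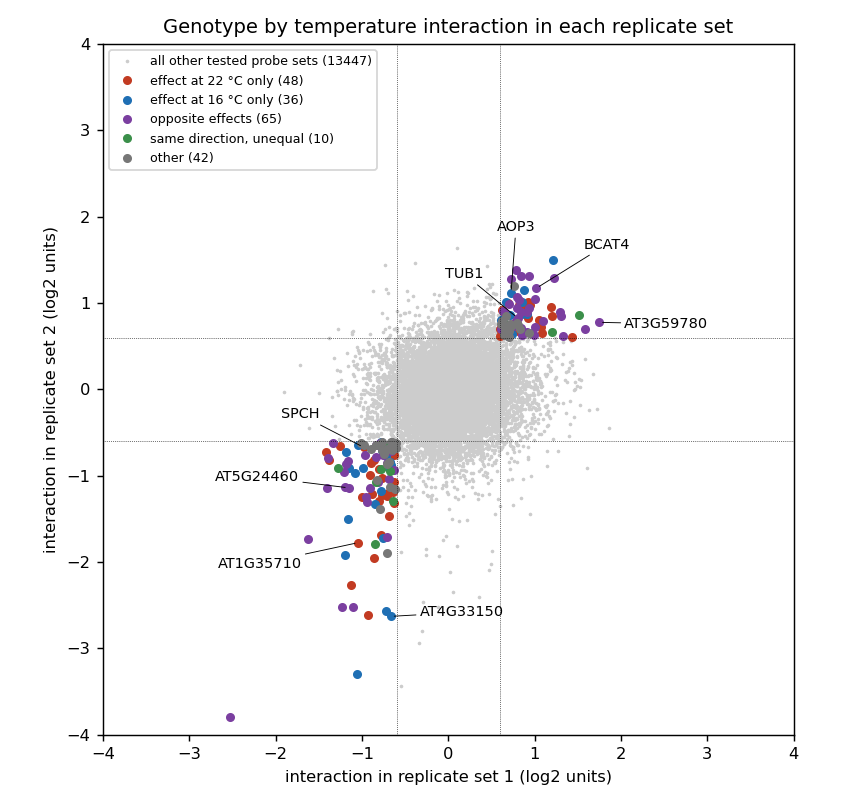
Interaction of each tested probe set in replicate set 1 (x axis) and replicate set 2 (y axis), in log2 units, with the 201 repeated probe sets coloured by how the phyB-1 difference behaved at each temperature and dotted lines at 0.6 log2 units. BCAT4 (1.02 in set 1, 1.17 in set 2) and AT1G35710 (-1.04 and -1.77) lie in the corners where the signs match, and the largest negative values are larger in set 2.

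The repeated probe sets fell into 5 classes by their difference at each temperature. A probe set is of the warmth class where phyB-1 differed from Ler by at least 0.5 log2 units at 22 °C in both sets and by a mean under 0.3 at 16 °C. The coolness class is the converse, the opposite class has mean differences of at least 0.3 with opposite signs, and the same-direction class has such differences of 1 sign. There were 48 probe sets in the warmth class (22 with 1 gene), 36 in the coolness class (18), 65 in the opposite class (30), 10 in the same-direction class (5) and 42 outside all of these (21). The largest class was thus the one in which phyB-1 stood above Ler at one temperature and below it at the other. Its rule asked for smaller differences than those of the warmth and coolness classes, and choosing large interactions favours opposite signs. The order of the class sizes is therefore a description of these rules as well. In 147 of the 201 the 22 °C minus 16 °C difference also had opposite signs in the genotypes, against 4564 of all 13648, a contrast that choosing large interactions favours. That temperature difference was larger in phyB-1 in 116 of the 201, against 7215 of all 13648.

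**Figure D3:**
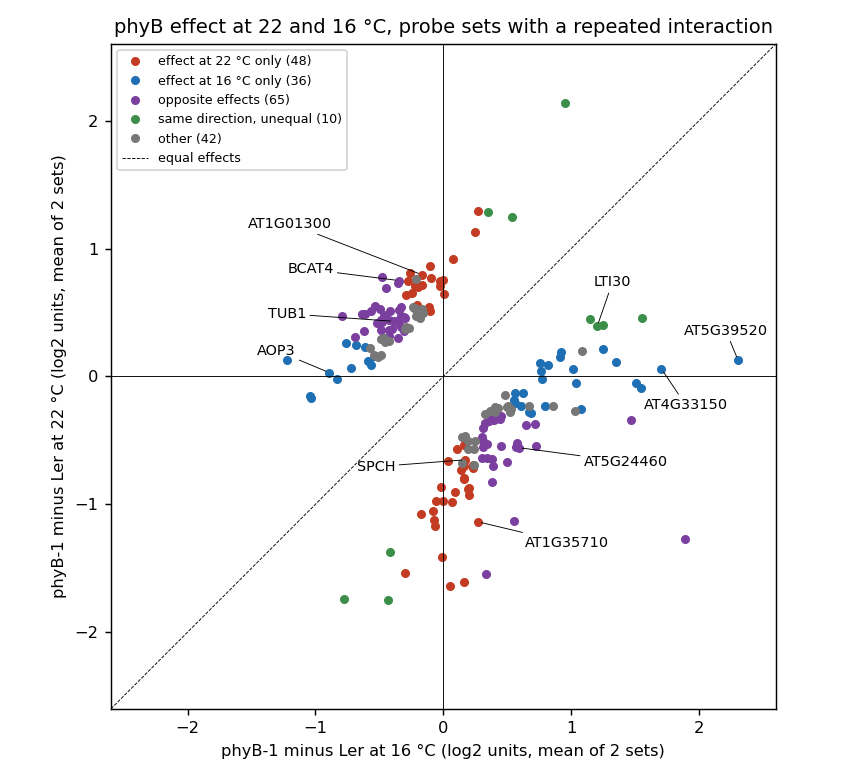
Difference phyB-1 minus Ler at 22 °C (y axis) against the same difference at 16 °C (x axis), in log2 units, for the 201 repeated probe sets, coloured by class, with a dashed line where both differences would be equal. Warmth-class points such as AT1G35710 lie along the vertical axis, coolness-class points such as AOP3 and AT4G33150 along the horizontal axis, and opposite-class points such as BCAT4 and AT5G24460 between the axes.

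Array values below are given in the order set 1 at 4 h, set 1 at 10 h, set 2 at 4 h and set 2 at 10 h. Standard errors and unadjusted p-values of single genes are those of the limma fit without the replicate block. A gene is written as a locus code where the annotation used gave no symbol for it. No role is given for such a gene, apart from AT4G33150 and AT5G48570.

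In the warmth class, 28 probe sets had a negative interaction, with phyB-1 below Ler at 22 °C, and 20 a positive one. The named gene with the largest negative value was AT1G35710, at 28.6, 28.6, 16.6 and 17.7 in phyB-1 at 22 °C, against 47.4, 95.4, 62.5 and 76.4 in Ler at 22 °C. At 16 °C it stood at 36.5, 41.3, 42.6 and 42.2 in phyB-1, against 35.4, 33, 13.9 and 48.4 in Ler. All 4 phyB-1 arrays lay below all 4 Ler arrays in the warmth, and the genotypes overlapped in the cool. The difference was -1.14 ± 0.22 log2 units (SE) at 22 °C and 0.27 ± 0.22 at 16 °C, and the interaction was -1.41 ± 0.32 (unadjusted p = 0.00085; -1.04 in set 1 and -1.77 in set 2).

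SPCH encodes the transcription factor SPEECHLESS, which starts the stomatal lineage in the leaf epidermis. It measured 25.4, 28.3, 35.6 and 25.4 in phyB-1 at 22 °C, against 64.7, 40.2, 56.4 and 56.7 in Ler at 22 °C. At 16 °C it measured 101, 97.5, 63.2 and 99.4 in phyB-1, against 80.6, 71.7, 82.4 and 74.4 in Ler. In the warmth the genotypes did not overlap and phyB-1 was lower, whereas in the cool 3 of 4 phyB-1 arrays were above the Ler arrays and the 4 h array of set 2 was below them. The interaction was -0.83 ± 0.26 (unadjusted p = 0.0084; -0.98 in set 1 and -0.67 in set 2), and -1.0 without the doubtful arrays. Seen by temperature, its 22 °C minus 16 °C difference was -1.24 log2 units in phyB-1 and -0.41 in Ler.

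Of the other stomatal genes tested, STOMAGEN, a secreted peptide of inner leaf tissue that promotes stomata, had an interaction of -0.33 ± 0.23, and FMA, which ends guard cell divisions, had 0.16 ± 0.30. STOMAGEN was near 0 at 22 °C (-0.01 log2 units between genotypes) and at 0.32 at 16 °C. Of the 3 stomatal genes 1 had an unadjusted p under 0.05, against 2.1% of all tested probe sets. Their median interaction was -0.33 (-0.59 in set 1 and -0.06 in set 2), against -0.003 over all tested probe sets.

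Other negative genes of this class were seen at low or moderate level. AT4G11000 stood at 26, 74.3, 29.5 and 51.5 in phyB-1 at 22 °C, against 62.2, 183, 63.4 and 159.8 in Ler at 22 °C, lower in phyB-1 within each set and time. At 16 °C it ranged widely, at 19.7 to 119 in phyB-1 and 2.21 to 299 in Ler. The interaction of AT4G11000 was -0.98 ± 0.30 (unadjusted p = 0.0067), and -0.68 without the doubtful arrays. AT5G43450 had -1.0 ± 0.31 and AT3G48640 -1.23 ± 0.68, which became -0.64 and -0.33 without the doubtful arrays. For both genes the phyB-1 arrays at 22 °C lay below the Ler arrays with no overlap. Over all tested probe sets 2.96% had no overlap at 22 °C in either direction, but the warmth class requires a difference there, which favours it. At 16 °C AT3G48640 ranged so widely, at 1.68 to 68.1 in phyB-1 and 5.91 to 141 in Ler, that its class rests on few clear values.

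On the positive side, AT1G01300 measured 204, 227, 414 and 361 in phyB-1 at 22 °C, against 136, 107, 189 and 232 in Ler at 22 °C. At 16 °C it measured 194, 163, 209 and 252 in phyB-1, against 239, 169.8, 276 and 247 in Ler. phyB-1 was higher in each of the 4 pairs of like set and time in the warmth, though the groups overlapped. In the cool it was lower in 3 of 4 pairs, a count that depends on the labelled times of the doubtful arrays. The interaction was 0.97 ± 0.40 (unadjusted p = 0.035), at 0.92 in set 1 and 1.01 in set 2.

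AT4G35320 had another pattern, in which the temperature difference was larger in Ler than in phyB-1. It measured 88.9, 53.7, 157 and 78.8 in phyB-1 at 22 °C, against 103, 10.8, 106 and 28.2 in Ler at 22 °C. At 16 °C all 8 arrays lay close together, at 103 to 131 in phyB-1 and 129 to 144 in Ler. The low Ler values were those of 10 h at 22 °C in both sets. The interaction was 0.90 ± 0.30 (unadjusted p = 0.012), with a 22 °C minus 16 °C difference of -0.33 log2 units in phyB-1 and -1.22 in Ler.

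AT4G19430 was near background at 16 °C in both genotypes, at 1.46 to 5.64 in phyB-1 and 0.704 to 11.8 in Ler. At 22 °C it measured 75.4 ± 22.9 in phyB-1 and 35.9 ± 11.9 in Ler (SD, n = 4), and its interaction was 1.07 ± 0.43. The offset of 16 sets the size of that value. AT1G72230, at 109 ± 49.2 in phyB-1 at 22 °C and 61.1 ± 30.7 in Ler at 22 °C, had an interaction of 0.93 ± 0.42.

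In the coolness class, 23 probe sets had a negative interaction, with phyB-1 above Ler at 16 °C, and 13 a positive one. The 3 largest negative values among its named genes were larger in set 2, where phyB-1 at 16 °C is measured by the doubtful arrays. AT4G33150, annotated as LKR/SDH, the enzyme with both activities that starts lysine breakdown, measured 50.2, 87.5, 33.1 and 59.5 in phyB-1 at 22 °C, against 36.8, 91.5, 36.6 and 56.4 in Ler at 22 °C. At 16 °C it measured 83.3, 87, 234 and 310.4 in phyB-1, against 29.5, 57.6, 21.1 and 43.1 in Ler. The genotypes overlapped in the warmth and did not overlap in the cool, where the doubtful arrays gave the highest values. The interaction was -1.65 ± 0.53 (unadjusted p = 0.0094), at -0.67 in set 1 and -2.63 in set 2, and -0.73 without those arrays.

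AT5G39520 showed the same imbalance, at 29, 44.6, 234 and 405 in phyB-1 at 16 °C, against 11.2, 6.73, 17.8 and 7.09 in Ler at 16 °C. At 22 °C it was near background in both genotypes, at 2.08 to 15.1 in phyB-1 and 1.12 to 19.3 in Ler. Its interaction was -2.18 ± 0.86, at -1.06 in set 1 and -3.29 in set 2, and -0.78 without the doubtful arrays. AT2G05540 had -1.64 ± 0.69 (-0.72 in set 1 and -2.56 in set 2), and -0.62 without them.

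MGL, the methionine gamma-lyase that breaks down methionine, was closer between sets. It measured 45.1, 38, 136 and 99.4 in phyB-1 at 16 °C, against 17.1, 5.9, 50.9 and 21.7 in Ler at 16 °C, higher in phyB-1 in each of the 4 pairs. The interaction was -1.03 ± 0.54 (-1.16 in set 1 and -0.91 in set 2), and -0.46 without the doubtful arrays.

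COR27, a cold-regulated gene under clock control, was placed in this class and shows what the doubtful arrays do. It measured 14.9, 668, 843 and 53.4 in phyB-1 at 16 °C, against 1.52, 546, 10.4 and 738 in Ler at 16 °C. At 22 °C it measured 7.77, 661, 4.02 and 644 in phyB-1, against 16.3, 904, 0.728 and 912 in Ler. COR27 was high at 10 h and dim at 4 h on 14 arrays, and the other way round on the 2 doubtful ones. After averaging over time the interaction was -0.95 ± 0.37 (unadjusted p = 0.025; -0.99 in set 1 and -0.91 in set 2), and -0.56 without those arrays.

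Leaving out the other arrays of phyB-1 at 16 °C, those of replicate 1, so that this group rests on the doubtful arrays alone, was the 1 setting in which probe sets passed the test. It called 23, all negative, of which 20 had matching signs in both sets and 12 belonged to the repeated ones. The 6 with 1 gene were AT5G39520, AT2G05540, AT1G05340, AT4G33150, AT4G01870 and ALDH7B4, an aldehyde dehydrogenase. These calls describe the 2 doubtful arrays and were absent in the other settings run.

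Of the positive genes of the coolness class, AOP3 encodes a dioxygenase that modifies the side chain of glucosinolates, sulphur-rich defence compounds of the cabbage family. AOP3 measured 1869, 551, 1663 and 583 in phyB-1 at 22 °C, against 2304, 476, 1754 and 474 in Ler at 22 °C. At 16 °C it measured 622, 323, 429 and 675 in phyB-1, against 1041, 582, 1347 and 902 in Ler. In the warmth phyB-1 was lower at 4 h and higher at 10 h in both sets, and in the cool phyB-1 was lower in each of the 4 pairs, although the groups overlapped. The difference was 0.03 log2 units at 22 °C and -0.89 at 16 °C, and the interaction was 0.92 ± 0.26 (unadjusted p = 0.0045; 0.73 in set 1 and 1.12 in set 2), and 1.01 without the doubtful arrays. The 22 °C minus 16 °C difference of AOP3 was thus 1.00 log2 units in phyB-1 and 0.08 in Ler.

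AT1G16560 measured 17.9, 39.7, 40.8 and 46.6 in phyB-1 at 16 °C, against 64.5, 59, 91.4 and 61.4 in Ler at 16 °C, with no overlap. Over all tested probe sets 2.73% showed this in either direction, but the coolness class requires a difference at 16 °C, which favours it. The genotypes overlapped at 22 °C for AT1G16560, and its interaction was 0.79 ± 0.35. AT1G05860 also had no overlap at 16 °C, with an interaction of 0.89 ± 0.44, and AT1G16500 had 0.81 ± 0.27.

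**Figure D4:**
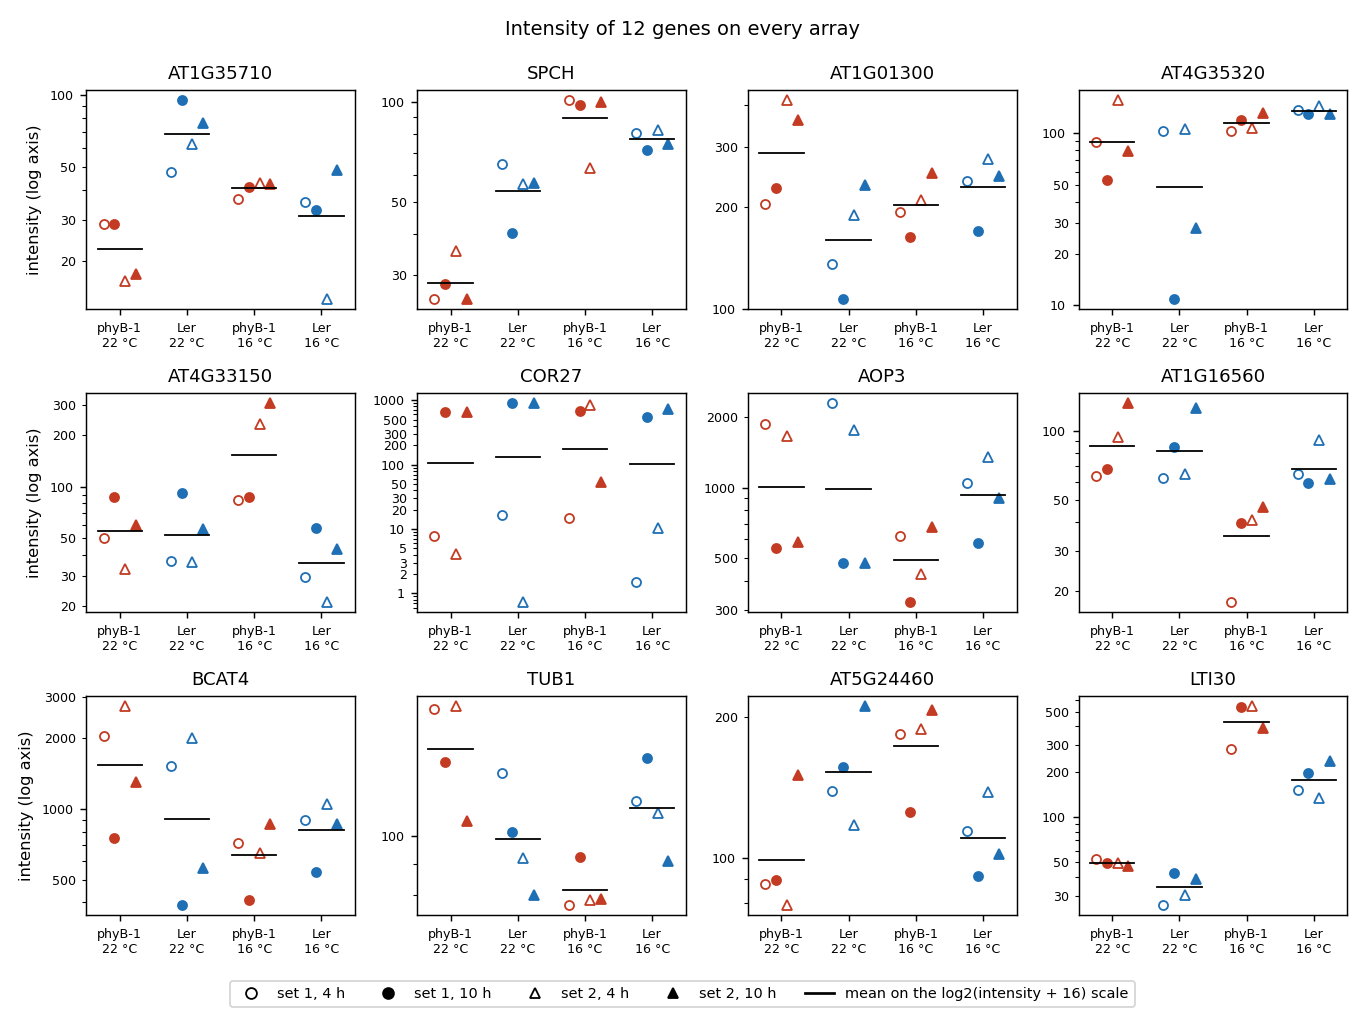
Intensity of 12 genes on every array (log axis), in the columns phyB-1 at 22 °C, Ler at 22 °C, phyB-1 at 16 °C and Ler at 16 °C, with circles for set 1, triangles for set 2, open symbols for 4 h, filled symbols for 10 h and a bar at the mean of the log2(intensity + 16) values. AT1G35710 and SPCH separate the genotypes at 22 °C, AT4G33150 and AT1G16560 at 16 °C, and LTI30 at both, and COR27 shows the 2 doubtful phyB-1 arrays at 16 °C against the time pattern of the others.

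In the opposite class, 35 probe sets were positive and 30 negative. BCAT4, the aminotransferase of methionine chain elongation that feeds the glucosinolate pathway, measured 2039.5, 751, 2753 and 1303 in phyB-1 at 22 °C, against 1523, 389, 1997 and 559 in Ler at 22 °C. At 16 °C it measured 717, 409, 648 and 860.2 in phyB-1, against 897, 537, 1046 and 864 in Ler. phyB-1 was higher in all 4 pairs in the warmth and lower in all 4 in the cool, by little in the last pair as labelled. Still, the groups overlapped at both temperatures because the level depended on time. The difference was 0.75 log2 units at 22 °C and -0.35 at 16 °C, and the interaction was 1.09 ± 0.35 (unadjusted p = 0.009; 1.02 in set 1 and 1.17 in set 2). With the replicate block its adjusted p was 0.44, and without the doubtful arrays its interaction was 1.07 with an adjusted p of 0.14, in limma fits.

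TUB1, a beta-tubulin gene, measured 162, 132, 164 and 106 in phyB-1 at 22 °C, against 127, 102, 92.1 and 80 in Ler at 22 °C. At 16 °C it measured 77, 92.5, 78.5 and 78.8 in phyB-1, against 114, 134, 109 and 91.1 in Ler. phyB-1 was higher in all 4 pairs in the warmth and lower in all 4 in the cool. The interaction was 0.81 ± 0.26 (unadjusted p = 0.0087), nearly the same in set 1 (0.80) and set 2 (0.83).

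Among negative members AT5G24460 varied little between sets. It measured 87.8, 89.4, 79.1 and 151 in phyB-1 at 22 °C, against 139, 156, 118 and 212 in Ler at 22 °C. At 16 °C it measured 185, 125, 189 and 208 in phyB-1, against 114, 91.3, 138 and 102 in Ler. phyB-1 was lower in all 4 pairs in the warmth and higher in all 4 in the cool, and the interaction was -1.15 ± 0.26 (unadjusted p = 0.00085; -1.15 in set 1 and -1.14 in set 2).

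AT1G30860 (-1.27 ± 0.36) and AT1G16260 (-1.17 ± 0.36) were negative too, and AT3G59780 (1.26 ± 0.39), AT4G01390 (1.14 ± 0.40), AT4G33380 (1.12 ± 0.33) and AT1G10020 (1.10 ± 0.50) positive. AT3G59780 was less even between sets, at 1.74 in set 1 and 0.78 in set 2, and its difference at 22 °C was 0.98 in set 1 and -0.05 in set 2. AT4G01390 was uneven too, at 1.58 in set 1 and 0.69 in set 2. The difference of AT4G33380 at 22 °C was 0.02 in set 1 and 0.96 in set 2.

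Only 1 probe set among those shown by ID separated the genotypes at both temperatures in opposite directions. Among the genes given by name, STZ (below) did so too, in the reverse directions. Over all tested probe sets 2.96% had no overlap at 22 °C and 2.73% at 16 °C, in either direction. The share with both was not counted, and choosing by a small interaction p favours such a pattern. 263431_at, which has no gene in the annotation used, measured 579, 554, 575 and 527 in phyB-1 at 22 °C, against 490.04, 328, 398 and 427 in Ler at 22 °C. At 16 °C it measured 302, 346, 320.3 and 307 in phyB-1, against 435, 380.5, 535 and 479 in Ler. All phyB-1 arrays lay above all Ler arrays in the warmth and below them in the cool. Its interaction was 0.93 ± 0.22 (unadjusted p = 0.0012; 0.80 in set 1 and 1.07 in set 2). The smallest unadjusted p belonged to another unnamed probe set, 251524_at (1.26 ± 0.27, unadjusted p = 0.00064), with 1.23 in set 1 and 1.29 in set 2.

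Genes of light signalling and shade avoidance were few on this annotation. Of 4 tested genes of shade avoidance all had a positive interaction and none an unadjusted p under 0.05, with a median of 0.35, against -0.003 over all tested probe sets. The median was 0.36 in set 1, where all 4 were positive, and 0.16 in set 2, where 2 were negative. All 4 were also positive under both other scalings, and 3 were so without the doubtful arrays (median 0.26). IAA29, an auxin-inducible repressor used as a readout of PIF activity, measured 78.3, 132, 46.4 and 106 in phyB-1 at 22 °C, against 30.9, 34.8, 15.2 and 22.5 in Ler at 22 °C. At 16 °C it measured 37.2, 67.7, 28.2 and 25.5 in phyB-1, against 16.1, 19.3, 21 and 13.4 in Ler. phyB-1 was above Ler without overlap at both temperatures, and the gap was 1.3 log2 units in the warmth and 0.68 in the cool. The interaction was 0.62 ± 0.39 (unadjusted p = 0.14), uneven between set 1 (0.29) and set 2 (0.96).

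HAT2, an auxin- and shade-induced homeodomain gene, had 0.58 ± 0.29, with 0.56 log2 units between genotypes at 22 °C and -0.02 at 16 °C. The auxin synthesis gene YUC2 (0.13) and the brassinosteroid signalling gene BIM1 (0.10) were near 0. The 3 light signalling genes were all negative, with a median of -0.41, namely AT2G16365 (-0.55), HYH, a relative of HY5 that promotes light responses (-0.41), and SPT, a repressor of germination and leaf growth in the cool (-0.12). Without the doubtful arrays AT2G16365 had -0.35 and SPT -0.27. The sets were uneven for this list, with a median of -0.03 in set 1, where 2 genes were negative, and -0.99 in set 2, where 3 were. HYH had opposite signs, at 0.17 in set 1 and -0.99 in set 2. All 3 genes were also negative without the doubtful arrays (median -0.32). The cause of the unevenness was not tested.

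Growth-related lists lay near the median of all tested probe sets. Of 14 cell wall expansion genes, 9 were positive and 5 negative, with a median of 0.06 and none at an unadjusted p under 0.05, and without the doubtful arrays 7 were positive and 7 negative. EXPA8, an expansin that loosens cell walls, had 0.52 ± 0.33 with 0.61 between genotypes at 22 °C and 0.09 at 16 °C, and XTH32, a xyloglucan-modifying enzyme gene, had 0.50 ± 0.25. The 4 auxin response genes had a median of 0.10 and the 3 gibberellin genes 0.09.

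Of 5 cold response genes, 2 had an unadjusted p under 0.05 and matching signs above 0.6, both negative. Over all tested probe sets 1.02% were negative at that p, and 0.806% were negative with matching signs of at least 0.6. LTI30 encodes a dehydrin, a protective protein made in the cold and in drought. It measured 53.1, 49.4, 49.7 and 47.4 in phyB-1 at 22 °C, against 26, 42.8, 30.5 and 39.1 in Ler at 22 °C. At 16 °C it measured 285, 533, 547 and 389.8 in phyB-1, against 150.5, 195, 135 and 237 in Ler. phyB-1 was above Ler without overlap at both temperatures, by 0.39 log2 units in the warmth and 1.2 in the cool, so LTI30 is in the same-direction class. The interaction was -0.81 ± 0.23 (unadjusted p = 0.0042; -0.68 in set 1 and -0.94 in set 2), and -0.70 without the doubtful arrays.

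STZ, a zinc finger repressor also known as ZAT10 that responds to cold, salt and strong light, measured 16.6, 20.2, 18.7 and 19.8 in phyB-1 at 22 °C, against 27.2, 28.9, 22.5 and 21.5 in Ler at 22 °C. At 16 °C it measured 29.6, 26.2, 73.5 and 74.9 in phyB-1, against 18.4, 14.5, 18.2 and 24.5 in Ler. The genotypes did not overlap at either temperature, with phyB-1 lower in the warmth and higher in the cool, at levels close to the offset of 16. The interaction was -1.09 ± 0.46, and -0.57 without the doubtful arrays, which gave the highest values.

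Other cold genes did not follow these, with 0.02 for COR47, -0.10 for COR15B and 0.49 for COR15A, which encode a dehydrin and a pair of small chloroplast proteins made in the cold. The median of the list was -0.10, at -0.42 in set 1 and 0.12 in set 2.

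All 4 glucosinolate genes tested were positive, with a median of 0.42 (0.40 in set 1 and 0.56 in set 2). They were positive under both other scalings too, and 3 of them were so without the doubtful arrays (median 0.31). BCAT4 had an unadjusted p under 0.05, and BCAT4 and GSTU20 had matching signs above 0.6. Over all tested probe sets 1.08% were positive at that p, and 0.667% were positive with matching signs of at least 0.6. GSTU20, a glutathione transferase of the tau class, measured 927, 1285.5, 1037 and 929.8 in phyB-1 at 16 °C, against 1494, 1849.7, 1318 and 1665 in Ler at 16 °C, with no overlap. At 22 °C it averaged 1477 ± 488 in phyB-1 and 1353 ± 396 in Ler (SD, n = 4), and its interaction was 0.71 ± 0.34, and 0.45 without the doubtful arrays. AT2G31790 (0.13) and UGT74B1, a glucosyltransferase late in the pathway (0.12), were nearer 0. AOP3, described above, was not in this list and was chosen for its positive interaction, so its sign adds nothing to that of the list.

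**Figure D5:**
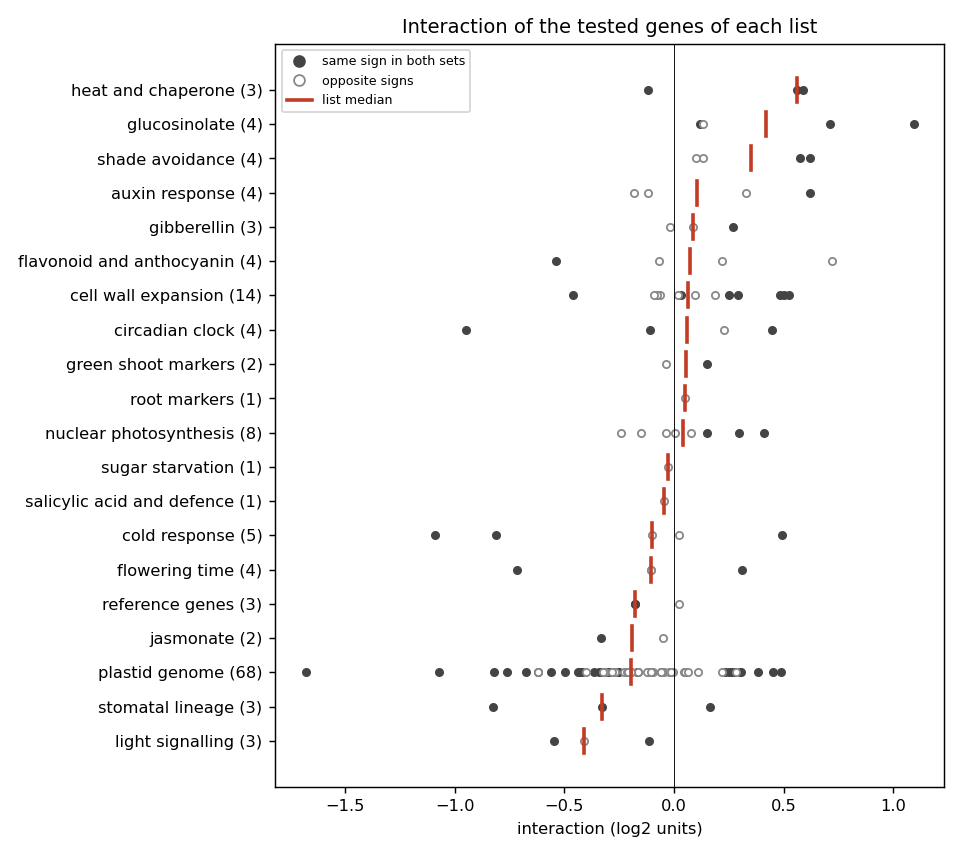
Interaction (x axis, log2 units) of each tested gene in 20 gene lists, with filled points where the signs matched in both replicate sets, open points where they did not, and a bar at the list median; the number of tested genes stands in brackets. The glucosinolate and shade avoidance genes all lie right of 0, and 53 of 68 plastid genes lie left of it.

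Genes of the plastid genome were mostly negative in set 1 and not in set 2. Of 68 tested, 53 were negative and 15 positive, 5 had an unadjusted p under 0.05, all negative, and the median was -0.20. Over all tested probe sets 1.02% were negative at that p. In set 1 the median was -0.39 with 52 negative, and in set 2 it was 0.04 with 32 negative. Quantile normalization gave 51 negative, median centring 50, and the fit without the doubtful arrays 49 with a median of -0.30. These genes share 1 small genome and long joint transcripts, so they are not independent of each other. The labelling reaction starts from poly(A) tails, which most plastid transcripts lack. The ratio of 3' to 5' signal of the actin control, a measure of RNA integrity, had an interaction of 0.92 log2 units in set 1 and -0.24 in set 2, and the GAPDH ratio had -0.35 in set 1 and 0.10 in set 2. The part of RNA integrity in the plastid values was not tested.

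psbA encodes the D1 protein at the core of photosystem II. It measured 3363, 3850.4, 4977 and 4995 in phyB-1 at 22 °C, against 6500.4, 5807, 6488 and 4979.5 in Ler at 22 °C. At 16 °C it measured 6155, 5355, 5210.5 and 5380.2 in phyB-1, against 4120.1, 4893, 4260.3 and 4163 in Ler. In the cool phyB-1 was above Ler without overlap, and in the warmth it was lower in 3 of 4 pairs and level in the other. The interaction was -0.82 ± 0.25 (unadjusted p = 0.0066; -1.12 in set 1 and -0.52 in set 2).

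psbN, a photosystem II assembly factor, had -1.68 ± 0.76, of like size in set 1 (-1.63) and set 2 (-1.73) but from unlike parts. In set 1 psbN differed between genotypes by -1.50 log2 units at 22 °C and 0.13 at 16 °C. In set 2 it differed by -0.76 at 22 °C and 0.97 at 16 °C. It averaged 93.2 ± 26 in phyB-1 at 22 °C, against 245 ± 155 in Ler at 22 °C (SD, n = 4), and at 16 °C 246 ± 158 in phyB-1 against 183 ± 143 in Ler. Of the NDH complex of cyclic electron flow, ndhG had -1.07 ± 0.72 and ndhE -0.76 ± 0.31, and ndhE had -0.38 without the doubtful arrays. The 8 nuclear photosynthesis genes had a median of 0.04, which turned to -0.11 without the doubtful arrays, and none had an unadjusted p under 0.05. Their highest value was 0.41, for LHCB4.3, a minor antenna gene of photosystem II.

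Among the remaining lists, SMZ, a repressor of flowering, had -0.72 ± 0.50 at a low level (13.5 ± 10.3 in phyB-1 at 22 °C and 22.4 ± 10.4 in Ler at 22 °C; SD, n = 4), and AGL24, a promoter of flowering, had 0.31. GI, a clock gene that also promotes flowering, had 0.45 ± 0.27. Of 3 heat and chaperone genes the median was 0.56, with AT3G09440 at 0.59 and AT5G48570, the heat-induced immunophilin ROF2, at 0.56 ± 0.34. DFR, the dihydroflavonol reductase of anthocyanin synthesis, had -0.54 ± 0.35, with phyB-1 minus Ler at -1.14 log2 units at 22 °C and -0.61 at 16 °C. Without the doubtful arrays SMZ had -1.19 and DFR -0.95. The jasmonate gene MYC4 had -0.33 (-0.17 without those arrays), the defence gene SAG101 -0.04, the sugar response gene AKINBETA1 -0.03, and the 3 reference genes a median of -0.18. Apart from COR27 of the clock list, described above, no member of these lists had an unadjusted p under 0.05.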

How the data were processed

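The labels assign the 16 arrays to 4 groups of genotype and temperature, with 2 times and 2 replicate numbers each. The authors deposited 1 linear intensity per probe set. The submitters' processing notes name MAS5 and GCOS for this step, with versions not given in the sources used here. Their 2% trimmed means were 100.01 to 100.013, so the deposited scaling was kept. MAS5 subtracts a local background, so dim values scatter widely. Of 22810 probe sets 64 controls were left out. Of the others 13513 had 1 gene in the platform annotation, 503 several and 8730 none. Among the probe sets with 1 gene, 13436 matched a locus in the RefSeq table of TAIR10.1.

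In R 4.3.3 with limma 3.58.1 the deposited intensity was taken as log2(intensity + 16), which understates the change of dim probe sets, and averaged over the 2 times within a genotype, temperature and replicate number. The 8 values per probe set were fitted with 1 mean per genotype and temperature (4 residual degrees of freedom), a moderated test (eBayes, intensity trend) and Benjamini-Hochberg adjustment over the 13648 probe sets in the upper 60% by mean, 7374 with 1 gene. A probe set with an adjusted p under 0.05 counts as called. The script was tested on simulated data. The number of arrays limits the precision.

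Deviations of same-numbered groups correlated in 6 of 6 pairs (0.24 to 0.55), so signs were compared between 2 sets, paired by the labels' replicate numbers. The main fit had no replicate block, so its standard errors and p-values ignore this pairing. The median standard error was 0.29 log2 units without the block and 0.23 with it. Alternatives were other offsets, filters and scalings, the replicate block, single arrays, 14 arrays, no trend and leaving out replicates.

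With no calls, the named genes were the 8 of smallest p in each direction with matching signs and 1 gene, the 4 of largest interaction in each direction of the first 3 classes, up to 2 members of each list with matching signs, and unnamed probe sets among the 5 smallest p in a direction. Where several probe sets named a gene, the one of highest mean stands for it. Members of a list given outside this rule, and genes at the threshold or called when an array was left out, were chosen after their values were seen. Of 25 lists, 20 had a tested gene, 138 genes in all. The members and lists were chosen with earlier results of these data known.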

Additional observations from a re-analysis of the deposited data

Results flagged for a closer look

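Among 268 groups of 4 arrays (67 named genes or probe sets, each in 4 genotype and temperature groups that hold both times), 4 had 1 array far from the other 3, judged by its gap to the nearest array as a share of the group's range. Chance flags about 1 in 20 such groups. SPCH in phyB-1 at 16 °C had a share of 0.917, from the doubtful array at 4 h of replicate 2 (63.2, against 97.5 to 101 on the others). TUB1 in phyB-1 at 16 °C had 0.88, from 10 h of replicate 1 (92.5, against 77 to 78.8). AT5G43450 in Ler at 22 °C had 0.932, from 4 h of replicate 1 (108, against 67.3 to 69.6). AT5G47930 in Ler at 16 °C had 0.929, from 10 h of replicate 1 (1533, against 1763 to 1781). No interaction passed its test, so no difference between temperatures is listed here.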

How the results depend on the processing

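No probe set was called at an adjusted p under 0.05 with offsets of 1 or 64, no filter, the upper 40%, quantile normalization, median centring, no intensity trend, single arrays, 14 arrays or the replicate block, which left the calls at 0 and moved the count at an unadjusted p under 0.05 to 821. Leaving out each replicate of each group gave 0 to 23 calls, the 23 only without phyB-1 at 16 °C replicate 1, and 158 to 505 probe sets at an unadjusted p under 0.05. The count of matching signs, 201 with 60 opposite, became 465 (305) with offset 1, 49 (3) with offset 64, 333 (171) with no filter, 116 (25) in the upper 40%, 717 (383) at a minimum of 0.4 and 16 (0) at a minimum of 1. A lower offset or minimum and no filter admit more dim probe sets or smaller sizes by construction. Quantile normalization gave 192 and median centring 205. Of 67 named genes or probe sets, 64 kept their direction in every one of the 18 alternatives in which their probe set was tested (16 to 18 for each). RCA turned to -0.060 with 14 arrays, and its values with a replicate left out ran between -0.095 and 0.40, those of SPT between -0.37 and 0.14, and those of MYC4 between -0.75 and 0.088. The cause was not tested. With 4 residual degrees of freedom the median standard error was 0.29 log2 units, and at this precision no interaction in the main fit passed the adjustment over all tested probe sets.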

Other observations

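The interaction of largest size belonged to an unnamed probe set, 246099_at, singled out after its values were seen. It measured 67.5, 163, 49.6 and 207 in phyB-1 at 22 °C, against 83.2, 1268, 80.1 and 596 in Ler at 22 °C. At 16 °C it measured 117, 253, 1432 and 1095 in phyB-1, against 39.8, 147, 57.9 and 439 in Ler. At 10 h it was lower in phyB-1 than in Ler in the warmth in both sets and higher in the cool, where the doubtful arrays gave the highest values. Its interaction was -3.16 ± 0.89 log2 units (-2.53 in set 1 and -3.79 in set 2), and -1.85 without those arrays.

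Of the 16 probe sets with at least 1 log2 unit and matching signs in both sets, 13 were negative and 3 positive, and 7 had 1 gene, namely AT5G39520, psbN, AT1G35710, AT1G30860, AT1G16260, AT5G24460 and BCAT4. Without the doubtful arrays 15 of the 16 kept at least 0.6 log2 units in the same direction, with a median size of 1.04, against 1.38 with all arrays.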
